A study of Mus musculus with 6 samples.

Results

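The genes described here are those whose products place trimethylation on lysine 4 of histone H3 (H3K4me3), the mark that the ChIP-Seq libraries measured. They are the 6 catalytic genes Kmt2a, Kmt2b, Kmt2c, Kmt2d, Setd1a and Setd1b, and the 4 genes of the subunits that all these complexes share, Wdr5, Ash2l, Rbbp5 and Dpy30. The 10 genes were taken by name from 21911 protein-coding genes, for what their products do. A peak was assigned to a gene when it lay within 1 kb of any of its transcript starts in GENCODE vM21, a mouse gene annotation.

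H3K4me3 was profiled in STHdh cells, conditionally immortalized mouse striatal progenitor lines labelled as strain C57BL/6. Q7SST was the wild-type line STHdhQ7 with vehicle, and Q111SST was the mutant line STHdhQ111, which carries expanded huntingtin, with vehicle. The other 4 lists came from STHdhQ111 cells given cyproheptadine, loxapine, diacylglycerol kinase inhibitor II (DKI) or meclizine, each at 10 uM. All cells, vehicle groups included, spent 24 h without serum. There was 1 line per genotype, so genotype and line cannot be told apart. Chromatin was crosslinked and cut with micrococcal nuclease before precipitation. The design speaks of treatment in triplicate, but each condition is represented by 1 peak list and whether replicates were pooled into it was not stated. With no replicate lists there was no spread to test against, and every difference below is a description of these 6 lists.

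The lists held between 30758 peaks after DKI and 45564 after loxapine, with 33721 for cyproheptadine, 38392 for Q7SST, 38577 for meclizine and 40406 for Q111SST. Read depth behind each list is unknown. Strength is given as a percentile, the share of peaks in the same list with a lower score, with peaks of equal score placed at the middle of their ranks, because the scale of the authors' score was not stated. As a check of the cell label, Vim was the 1 of 6 neural progenitor markers with a promoter peak in all 6 lists and Sox1 had none in any. Of the striatal lineage markers, Dlx1, Dlx2, Foxp1, Foxp2 and Ebf1 were among those marked in all 6 lists, and the dopamine receptor genes Drd1 and Drd2 were marked in none. Of 10 markers of other cell types, 0 were marked in all 6 lists and 6 were marked in none. The astrocyte markers Gfap and Aldh1l1 were marked in 5 and 4 lists, and the progenitor markers Nes and Sox2 in 5 each, so these markers did not separate the cell types.

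H3K4 methyltransferases work as multi-subunit complexes related to yeast COMPASS. A catalytic SET-domain protein is joined by WDR5, RBBP5, ASH2L and DPY30, without which it is only weakly active. SETD1A and SETD1B complexes are associated with H3K4me3 at active promoters in general, KMT2A and KMT2B with developmental and other selected promoters, and KMT2C and KMT2D mainly with monomethylation at enhancers. Several of these complexes bind CpG-rich promoters through CXXC zinc finger domains.

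All 10 genes had a promoter peak in all 6 lists, where 53.5% of protein-coding genes did. The 4 shared-subunit genes each carried 1 unbroken peak over the main transcript start in each of the 6 lists. None of the 6 catalytic genes did so throughout. Their peaks came in pairs on either side of an uncovered stretch in 3 to 5 of the 6 lists at each gene, and at Kmt2a, Kmt2c and Setd1b the start itself lay under no peak in all 6 lists. The main start is the coding start covered in the most lists, so the choice of start favours coverage. It was the most upstream coding start at the catalytic genes, Wdr5 and Rbbp5. At Ash2l and Dpy30 a start further upstream had no peak within 1 kb in any list.

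**Figure D1:**
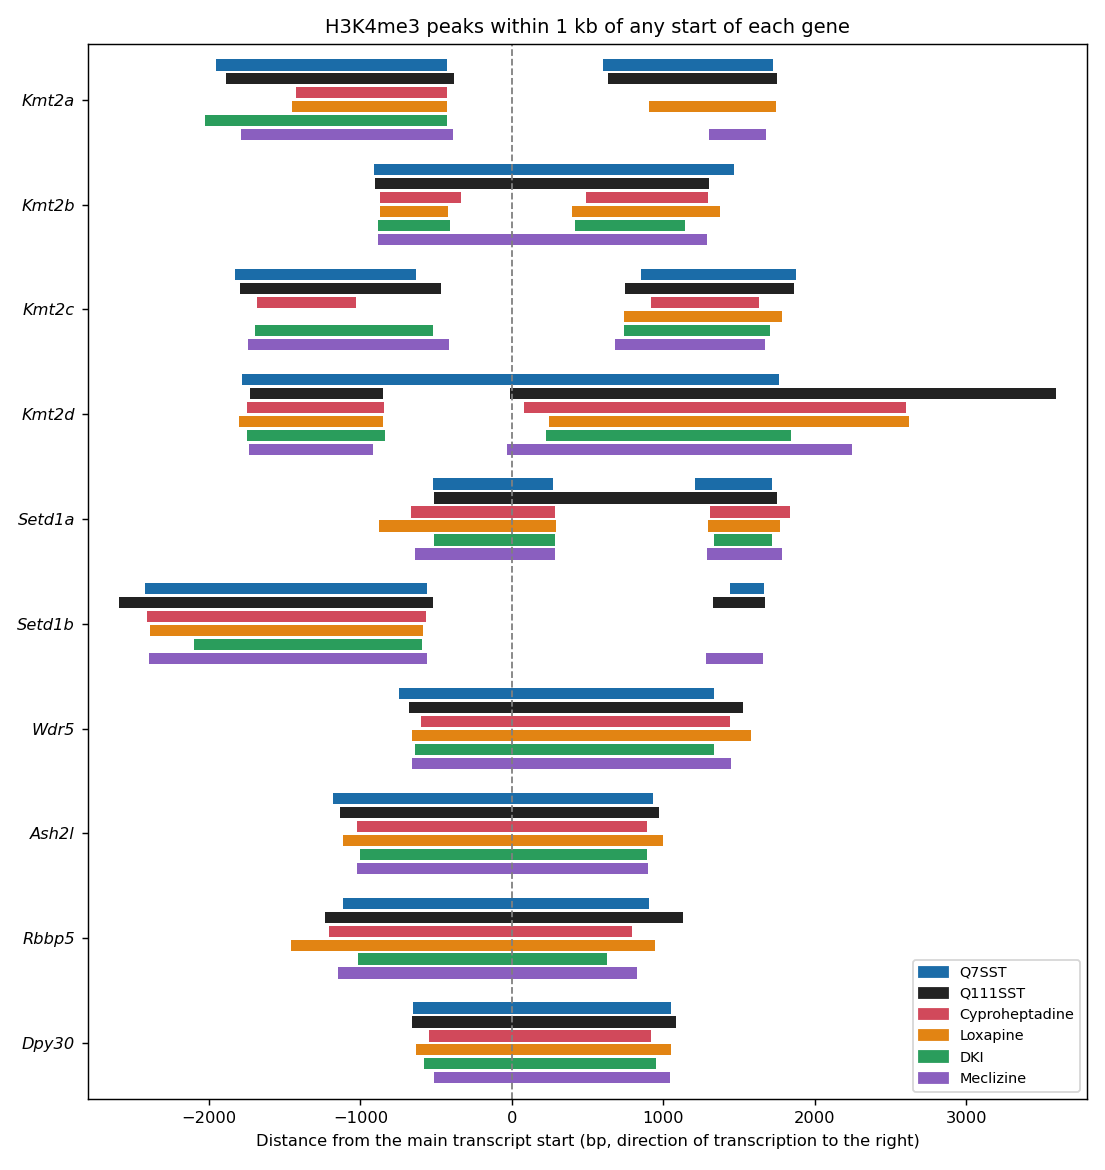
Each bar is 1 peak assigned to a gene, drawn from its first to its last base relative to the main transcript start (dashed line; horizontal axis in bp, transcription to the right), with 1 row per list in the colours of the legend. The 4 lower genes show 1 bar across the start in each list, while the 6 catalytic genes show pairs of bars with a gap, and the 2 peaks that fell just outside the 1 kb limit are not drawn.

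Base composition also differed between these starts, and the following stretches are shown for that reason. Each is the 150 bases before the main start of a gene in GRCm38, read 5′ to 3′ in the direction of transcription from the RefSeq copy of the assembly, and none of the bases shown lies in an annotated exon of its gene. The main start is the coding start covered by peaks in the most lists, with ties going to the most upstream start. Capitals mark CpG dinucleotides. Kmt2a and Setd1b come first as starts covered in none of the 6 lists, then Kmt2b and Kmt2d as starts covered in 3 of them. The third start covered in none, that of Kmt2c, had the richest stretch, with 88.0% GC and 30 CpG, and is not printed because 38 of its bases lie in annotated exons.
Kmt2a, chr9:44881297-44881446, minus strand: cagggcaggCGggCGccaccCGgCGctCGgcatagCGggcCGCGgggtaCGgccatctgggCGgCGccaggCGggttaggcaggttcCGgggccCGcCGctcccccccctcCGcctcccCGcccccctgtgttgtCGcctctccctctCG
Setd1b, chr5:123142043-123142192, plus strand: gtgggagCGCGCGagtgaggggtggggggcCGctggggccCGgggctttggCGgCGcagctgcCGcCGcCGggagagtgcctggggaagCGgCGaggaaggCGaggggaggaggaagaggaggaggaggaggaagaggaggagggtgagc
Kmt2b, chr7:30588727-30588876, minus strand: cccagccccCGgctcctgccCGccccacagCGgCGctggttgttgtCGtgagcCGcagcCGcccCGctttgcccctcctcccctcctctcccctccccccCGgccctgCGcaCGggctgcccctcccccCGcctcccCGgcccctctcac
Kmt2d, chr15:98871205-98871354, minus strand: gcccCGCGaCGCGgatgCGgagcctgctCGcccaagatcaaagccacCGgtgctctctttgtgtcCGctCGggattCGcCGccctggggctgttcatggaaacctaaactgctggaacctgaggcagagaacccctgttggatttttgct
These stretches held 19 CpG at 79.3% GC for Kmt2a, 13 at 74.7% for Setd1b, 13 at 79.3% for Kmt2b and 11 at 60.7% for Kmt2d.

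The next stretches precede starts that were covered in all 6 lists.
Setd1a, chr7:127776520-127776669, plus strand: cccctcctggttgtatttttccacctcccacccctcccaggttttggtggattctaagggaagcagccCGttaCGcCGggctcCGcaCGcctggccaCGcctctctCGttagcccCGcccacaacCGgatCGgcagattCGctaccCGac
Wdr5, chr2:27515007-27515156, plus strand: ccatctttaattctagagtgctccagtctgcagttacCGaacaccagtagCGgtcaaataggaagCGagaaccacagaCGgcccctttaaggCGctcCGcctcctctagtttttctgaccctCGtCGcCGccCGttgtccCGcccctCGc
Ash2l, chr8:25840788-25840937, minus strand: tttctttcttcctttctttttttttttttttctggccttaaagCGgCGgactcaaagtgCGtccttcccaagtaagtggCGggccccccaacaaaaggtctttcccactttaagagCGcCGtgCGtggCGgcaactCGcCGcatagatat
Rbbp5, chr1:132477215-132477364, plus strand: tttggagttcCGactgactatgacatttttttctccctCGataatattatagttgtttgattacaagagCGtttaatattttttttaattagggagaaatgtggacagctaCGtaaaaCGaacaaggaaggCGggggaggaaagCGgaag
Dpy30, chr17:74316464-74316613, minus strand: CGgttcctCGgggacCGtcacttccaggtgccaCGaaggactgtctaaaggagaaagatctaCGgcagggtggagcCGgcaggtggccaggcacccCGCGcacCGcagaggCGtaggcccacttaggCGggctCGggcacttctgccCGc
GC content was 63.3% for Setd1a with 12 CpG, 57.3% for Wdr5 with 12, 49.3% for Ash2l with 10, 38.0% for Rbbp5 with 7 and 67.3% for Dpy30 with 13. The Dpy30 and Setd1a stretches thus exceeded that of Kmt2d, covered in 3 lists, while the stretches of the starts covered in none lay above all 5 of these. The Rbbp5 and Ash2l stretches hold long runs of T, whereas those of Kmt2a and Kmt2b are dominated by C and G.

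Kmt2a encodes MLL1, best known for maintaining Hox gene expression. The gene lies on chromosome 9 from 44803355 to 44881296 on the minus strand, with its main start at 44881296 and its start codon 22 bp into exon 1. An upstream peak was present in each of the 6 lists, with its inner edge between -429 and -381 bp of the start. Over the same stretch lay the starts of AC061963.1, an antisense transcript, between -454 and -432 bp. A downstream peak in intron 1 was assigned in 4 lists, beginning at 601 bp in Q7SST, 632 bp in Q111SST, 907 bp after loxapine and 1299 bp after meclizine. The downstream peak was the weaker of the pair, with percentiles of 9.57 in Q7SST, 35.4 in Q111SST, 40.6 after loxapine and 7.46 after meclizine. After cyproheptadine a downstream peak of 265 bp lay 1044 bp from the nearest start, just outside the 1 kb limit, and after DKI no downstream peak was assigned.

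The strongest Kmt2a peak ranked at percentile 67.2 in Q7SST, 71.1 in Q111SST, 56.9 after cyproheptadine, 75.2 after loxapine, 50.8 after DKI and 71.8 after meclizine. Cyproheptadine and DKI were thus the low lists, at -14.3 and -20.3 points from Q111SST. In all, 2650 bp were covered in Q7SST, 2627 in Q111SST, 996 after cyproheptadine, 1856 after loxapine, 1598 after DKI and 1781 after meclizine. Each of the compound lists covered less of the promoter than either vehicle list, with ratios to Q111SST of 0.379, 0.707, 0.608 and 0.678 in the same order.

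Kmt2b encodes MLL2, a paralog of MLL1 required for H3K4me3 at many developmental promoters in embryonic stem cells. It lies on chromosome 7 from 30568858 to 30588726 on the minus strand, with its start codon 9 bp after the start in exon 1. A single peak ran across the start in Q7SST, Q111SST and meclizine, 2374, 2204 and 2171 bp wide. With the other 3 compounds a similar outer span was held by a pair of peaks, and the stretch left between them was 825 bp after cyproheptadine, 818 bp after loxapine and 827 bp after DKI. The start lay inside that stretch in each of these 3 lists. Mir3569, a microRNA gene on the opposite strand, started at -654 bp, under a promoter peak of Kmt2b in all 6 lists.

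Kmt2b peaks were strong throughout, at percentile 89.6 in Q7SST, 93.9 in Q111SST, 90.5 after cyproheptadine, 91.7 after loxapine, 90.7 after DKI and 91.8 after meclizine. Both peaks of the pair kept this rank after cyproheptadine, at 90.5 and 89.9, and after loxapine, at 90.8 and 91.7, whereas after DKI the upstream peak stood at 90.7 and the downstream peak at 82.2. The width of the strongest peak fell to 0.243 of its Q111SST value after cyproheptadine, 0.443 after loxapine and 0.214 after DKI. Covered base pairs, which count both peaks of a pair, came to 0.608, 0.648 and 0.543 of Q111SST. Width of the strongest peak is therefore read together with covered base pairs in what follows.

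Kmt2c encodes MLL3, a methyltransferase of enhancer chromatin. Its annotated span is chromosome 5 from 25271798 to 25498783 on the minus strand, with its main start at 25498745. Peaks were assigned on both sides of the start in 5 lists, separated by 1486 bp in Q7SST, 1219 bp in Q111SST, 1953 bp after cyproheptadine, 1258 bp after DKI and 1100 bp after meclizine. After loxapine the upstream peak, 669 bp wide at percentile 73.6, ended 1013 bp from the nearest start and so fell outside the limit by a few bases, and the loxapine value of covered base pairs below leaves it out. After cyproheptadine the upstream peak ended 995 bp from that start and was assigned.

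The strongest Kmt2c peak ranked at percentile 92.0 in Q7SST, 79.7 in Q111SST, 84.6 after cyproheptadine, 90.6 after loxapine, 65.4 after DKI and 77.9 after meclizine. The spread between lists was wide, with the wild-type line 12.3 points above Q111SST and DKI at -14.3 points from it. Covered base pairs were 2218 in Q7SST, 2440 in Q111SST, 1357 after cyproheptadine, 1045 after loxapine, 2142 after DKI and 2310 after meclizine.

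Kmt2d encodes the enhancer methyltransferase KMT2D, a partner of the demethylase UTX. It spans chromosome 15 from 98831669 to 98871204 on the minus strand, and its translation starts in a later exon, 4484 bp from the transcript start. This promoter had the largest covered length of the 10 genes in all 6 lists, with 3550 bp in Q7SST, 4480 bp in Q111SST, 3423 bp after cyproheptadine, 3333 bp after loxapine, 2524 bp after DKI and 3086 bp after meclizine. In Q111SST, 97.8% of promoters marked in all 6 lists had fewer base pairs covered. Strength of the strongest peak was modest, at percentile 62.5 in Q7SST, 63.6 in Q111SST, 56.0 after cyproheptadine, 63.9 after loxapine, 64.1 after DKI and 62.6 after meclizine. By this peak, Q7SST, Q111SST, loxapine, DKI and meclizine lay within 2 points of each other. In each list but Q7SST, however, the strongest peak was a short one upstream of the start. The longer downstream peak stood at 53.1 in Q111SST, 44.3 after cyproheptadine, 55.9 after loxapine, 32.2 after DKI and 54.9 after meclizine.

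The shape of the Kmt2d mark differed between lists. Q7SST held a single peak of 3550 bp across the start. The other 5 lists held an upstream peak of 814 to 950 bp that covered the starts of the lincRNA 5730414N17Rik and of Gm49437, and a longer downstream peak. The downstream peak began at -10 bp in Q111SST and -29 bp after meclizine, which placed the start just under it. After cyproheptadine, loxapine and DKI it began at 82, 242 and 225 bp, past the start.

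Setd1a encodes the catalytic subunit of a complex that contributes much of the H3K4me3 at active promoters. Its position is chromosome 7 from 127776670 to 127800122 on the plus strand. The start was covered in all 6 lists, and the uncovered stretch lay downstream of it, beginning between 273 and 293 bp and ending between 1209 and 1332 bp in Q7SST and the 4 compound lists. Exon 1 ends 677 bp from the start and intron 1 at 1442 bp, so the stretch ran from exon 1 into intron 1. Only in the Q111SST list was it bridged, by a single peak of 2266 bp.

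Strongest Setd1a peaks were 793 bp wide in Q7SST, 949 bp after cyproheptadine, 1170 bp after loxapine, 796 bp after DKI and 924 bp after meclizine, which is 0.350 to 0.516 of Q111SST. Counting both peaks, coverage came to 0.573 of Q111SST in Q7SST, 0.650 after cyproheptadine, 0.726 after loxapine, 0.522 after DKI and 0.627 after meclizine. The percentile was 86.8 in Q7SST, 76.9 in Q111SST, 80.0 after cyproheptadine, 88.3 after loxapine, 85.5 after DKI and 74.8 after meclizine, so that Q111SST, with the widest peak, stood lower than each list but meclizine.

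Setd1b encodes the paralogous SET1 enzyme. The gene lies on chromosome 5 from 123142193 to 123168629 on the plus strand. Its upstream peak ended between -596 and -519 bp in the 6 lists and covered starts of the divergent lincRNA AI480526 in each. The AI480526 starts lie between -1904 and -527 bp, and the one at -527 bp was under the peak only in Q111SST. A small downstream peak of 227 bp in Q7SST, 346 bp in Q111SST and 374 bp after meclizine began 1285 to 1439 bp past the start, which is beyond the start codon at 764 bp. Cyproheptadine, loxapine and DKI had no downstream peak, and these are the same 3 lists in which the starts of Kmt2b and Kmt2d were uncovered.

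The Setd1b upstream peak was lowest in Q111SST, at percentile 56.9, beside 61.4 in Q7SST, 66.5 after cyproheptadine, 72.6 after loxapine, 70.4 after DKI and 61.5 after meclizine. Covered base pairs were highest in Q111SST, at 2420, beside 2090 in Q7SST, 1837 after cyproheptadine, 1798 after loxapine, 1502 after DKI and 2204 after meclizine.

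Wdr5 encodes the WD-repeat subunit that bridges the catalytic protein and the rest of the complex. It is found on chromosome 2 from 27515157 to 27536535 on the plus strand, and its single peak reached from between -745 and -597 bp to between 1334 and 1576 bp. The peak was 2080 bp wide in Q7SST, 2205 bp in Q111SST, 2039 bp after cyproheptadine, 2233 bp after loxapine, 1973 bp after DKI and 2107 bp after meclizine. These widths lay within 0.895 to 1.01 of Q111SST. Its percentile was 79.4 in Q7SST, 84.0 in Q111SST, 82.6 after cyproheptadine, 83.0 after loxapine, 65.4 after DKI and 77.2 after meclizine. DKI stood apart at -18.6 points from Q111SST, where the median over all promoters was -6.57 points, although the Wdr5 peak there kept most of its width.

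Ash2l encodes a subunit that together with RBBP5 stimulates the SET domain. The gene lies on chromosome 8 from 25815996 to 25847694 on the minus strand, with the main start at 25840787. Its peak was among the strongest of the 10 genes, at percentile 97.0 in Q7SST, 98.3 in Q111SST, 94.7 after cyproheptadine, 95.8 after loxapine, 92.6 after DKI and 96.5 after meclizine. Widths were 2110, 2104, 1910, 2115, 1894 and 1918 bp in the same order. An alternative start 6907 bp upstream had no peak within 1 kb in any of the 6 lists.

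Rbbp5 encodes a WD-repeat subunit that contacts both WDR5 and ASH2L. The gene lies on chromosome 1 from 132477365 to 132505659 on the plus strand, and its peak also covered starts of the divergent transcript 6030442K20Rik between -320 and -301 bp. Percentiles were 91.1 in Q7SST, 92.8 in Q111SST, 92.7 after cyproheptadine, 88.3 after loxapine, 94.2 after DKI and 92.7 after meclizine, a range of a few points. The width moved more, with 2020 bp in Q7SST, 2365 bp in Q111SST, 1998 bp after cyproheptadine, 2406 bp after loxapine, 1638 bp after DKI and 1970 bp after meclizine. In the DKI list Rbbp5 had both its highest rank and its narrowest peak, 0.693 of Q111SST.

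Dpy30 encodes the small subunit that docks on ASH2L. It was annotated on chromosome 17 from 74299474 to 74323944 on the minus strand, with the main start at 74316463. The peak was the narrowest of the shared-subunit genes in all 6 lists, at 1701 bp in Q7SST, 1743 bp in Q111SST, 1464 bp after cyproheptadine, 1682 bp after loxapine, 1535 bp after DKI and 1559 bp after meclizine. It ranked at percentile 98.1 in Q7SST, 89.8 in Q111SST, 85.3 after cyproheptadine, 90.6 after loxapine, 85.9 after DKI and 93.2 after meclizine. The wild-type line was 8.32 points above Q111SST. A start 7481 bp upstream of the main start was unmarked in all 6 lists.

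Median strength of the 4 shared-subunit genes was 94.1 in Q7SST, 91.3 in Q111SST, 89.0 after cyproheptadine, 89.4 after loxapine, 89.2 after DKI and 92.9 after meclizine. The 6 catalytic genes had medians of 77.0, 74.0, 73.2, 81.7, 67.9 and 73.3 in the same order, beside 80.4, 82.6, 79.5, 83.0, 76.3 and 80.3 over all marked coding genes. The order of the 2 sets was the same in each list, although Kmt2b ranked with the shared subunits and Wdr5 fell among the catalytic genes.

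**Figure D2:**
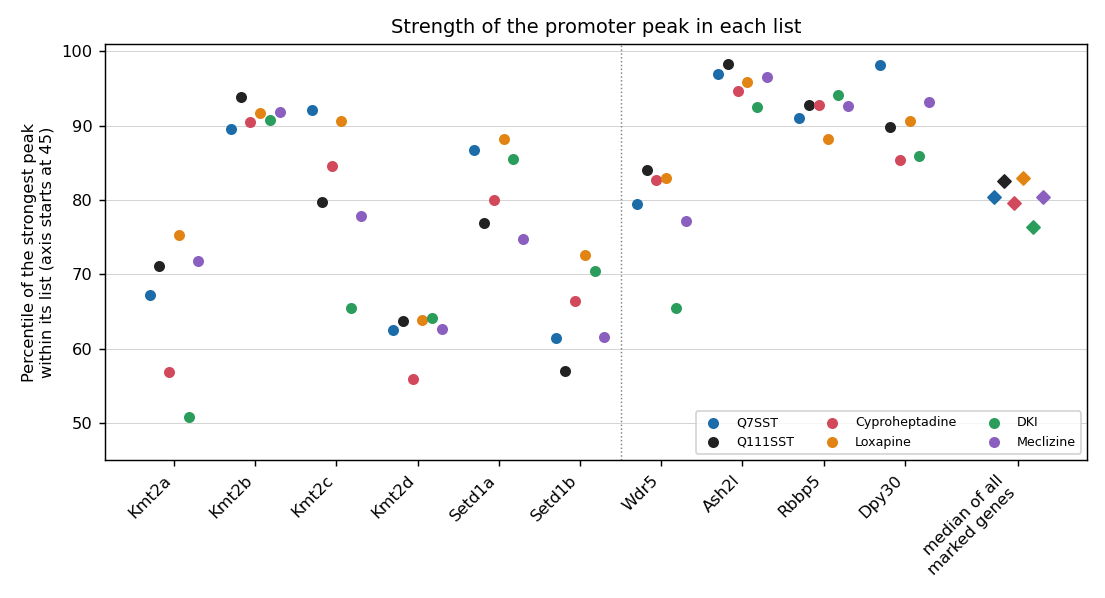
Each point is the percentile of a gene's strongest promoter peak among all peaks of 1 list (vertical axis in percent, starting at 45), with diamonds for the median of all marked coding genes and a dotted line between catalytic genes and shared subunits. Ash2l stayed between 92.6 and 98.3 and Kmt2d between 56.0 and 64.1, while Kmt2a, Kmt2c, Wdr5 and Ash2l had their lowest point after DKI.

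The question of whether the compounds changed the mark at its own enzymes was addressed against Q111SST, the vehicle list that all 4 compounds and Q7SST share. A strongest peak was counted as wider or narrower at a ratio of at least 1.1-fold. In Q7SST, 1 gene was wider and 3 were narrower, where 18.2% and 30.0% of all promoters marked in both lists were. After cyproheptadine 0 were wider and 8 narrower (4.25% and 57.2% of all). After loxapine 0 were wider and 4 narrower (14.7% and 25.5%). After DKI 0 were wider and 7 narrower (3.83% and 74.0%), and after meclizine 0 were wider and 5 narrower (10.6% and 36.5%). Relative to the median promoter of the same pair of lists, the counts were 2 wider and 2 narrower in Q7SST. After cyproheptadine they were 1 and 4, after loxapine 0 and 4, after DKI 3 and 4, and after meclizine 0 and 2. Shares of all promoters are not given for these relative counts. The prevailing direction was the same among all promoters, and after DKI the members' share of narrower peaks lay close to that of all promoters.

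The median width ratio to Q111SST was 0.960 over the 10 genes and 0.973 over all promoters in Q7SST, 0.842 and 0.887 after cyproheptadine, and 0.951 and 0.987 after loxapine. It was 0.888 and 0.833 after DKI, and 0.903 and 0.942 after meclizine. The only gene counted as wider, Kmt2d in Q7SST at 4.05 times its Q111SST width, was the promoter held by 1 long peak in Q7SST and by a pair in Q111SST, and its covered length was smaller in Q7SST.

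Covered base pairs departed further from all promoters than strongest-peak width in Q7SST, cyproheptadine, loxapine and DKI, and not in meclizine. The median ratio was 0.926 over the 10 genes against 0.971 over all promoters in Q7SST, 0.762 against 0.878 after cyproheptadine, 0.743 against 0.986 after loxapine, 0.657 against 0.823 after DKI and 0.903 against 0.940 after meclizine. By this measure 5 of the 10 genes were narrower in Q7SST, 9 after cyproheptadine, 6 after loxapine, 10 after DKI and 5 after meclizine, and 0 were wider in any of these lists. Over all promoters the narrower share was 30.9% in Q7SST, 60.0% after cyproheptadine, 26.4% after loxapine, 76.5% after DKI and 37.3% after meclizine. The wider share was 18.9%, 3.58%, 14.8%, 2.94% and 10.5% in the same order. After loxapine all 6 catalytic genes were narrower, at ratios from 0.428 for Kmt2c to 0.744 for Kmt2d, while the 4 shared-subunit genes lay between 0.965 and 1.02. With the Kmt2c peak just outside the 1 kb limit counted as well, its loxapine ratio was 0.702, and Kmt2b was then the lowest at 0.648.

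**Figure D3:**
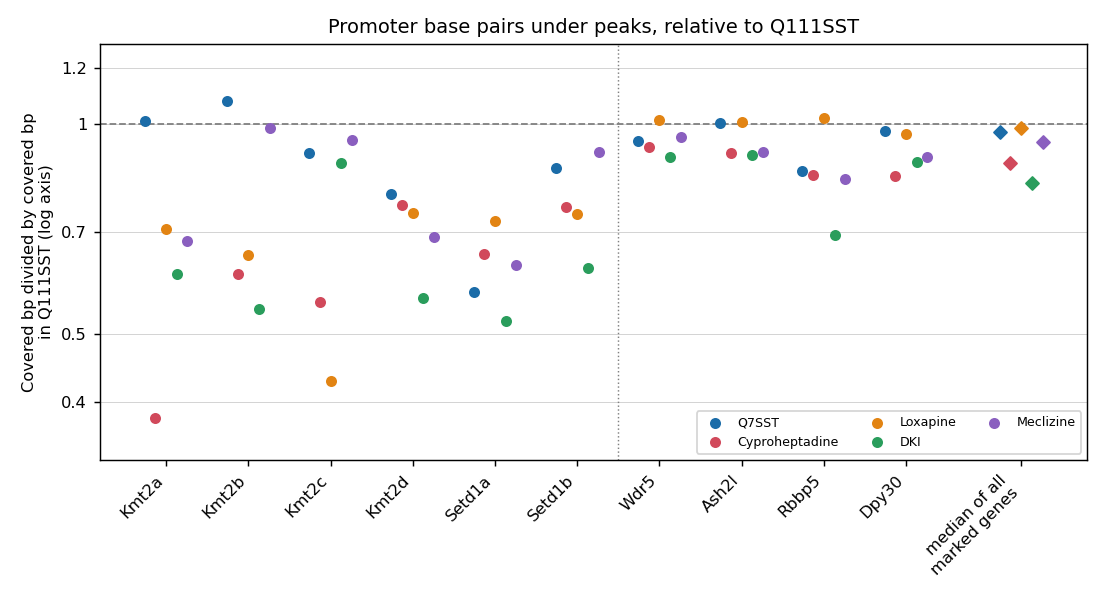
Points give the base pairs covered by promoter peaks in a list divided by those in Q111SST, on a log axis, for each gene and, as diamonds, for the median of all marked genes. Catalytic genes left of the dotted line fall as low as 0.379 for Kmt2a after cyproheptadine (0.480 with the peak outside the limit), and the shared subunits to the right lie at 0.693 or above.

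A strength percentile was counted as higher or lower at 2 points or more. The median difference from Q111SST over all promoters was -1.04 points in Q7SST and -3.74 after cyproheptadine. It was -0.352 after loxapine, -6.57 after DKI and -1.54 after meclizine. In Q7SST, 4 genes were higher and 3 lower than in Q111SST (28.6% and 43.8% of all promoters). After cyproheptadine 3 were higher and 5 lower (18.3% and 59.4%), and after loxapine 4 were higher and 3 lower (32.2% and 37.6%). After DKI 2 were higher and 6 lower (14.7% and 68.6%), and after meclizine 2 were higher and 3 lower (21.9% and 46.3%). The balance of higher and lower after cyproheptadine, loxapine and meclizine turned under another way of ranking, as given below. Setd1b was the 1 gene of the 10 that was higher in all 5 lists, by 4.43 points in Q7SST, 9.52 after cyproheptadine, 15.7 after loxapine, 13.5 after DKI and 4.59 after meclizine. Because these 5 values share the Q111SST list, a low rank there enters all of them. The ranked Setd1b peak was the upstream one, which did not cover the Setd1b start. The share of all promoters that were higher in all 5 lists is not given.

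The main start lay under no peak for 3 of the 10 genes in Q7SST, Q111SST and meclizine, and for 5 after cyproheptadine, loxapine and DKI. Over all marked coding genes the share was 16.3% in Q7SST, 16.4% in Q111SST, 23.8% after cyproheptadine, 21.7% after loxapine, 20.3% after DKI and 15.0% after meclizine. Of the 7 genes whose start was covered in Q111SST, 2 were uncovered with each of cyproheptadine, loxapine and DKI, namely Kmt2b and Kmt2d in each case. The background for such a loss was 11.8% after cyproheptadine, 8.20% after loxapine and 8.63% after DKI. No member lost the start in Q7SST or after meclizine, where 3.99% and 2.49% of all promoters did. With peaks within 1 kb of each other merged, the uncovered members were 3 after cyproheptadine, 4 after loxapine and 4 after DKI, beside 3 in Q111SST, and the Kmt2b pair became 1 peak in each of the 3 lists. The shares over all genes above are for unmerged peaks, and none is given for merged ones. The DKI and cyproheptadine lists were the shortest of the 6 and the loxapine list the longest. What part peak calling had in these losses was not tested.

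More than 1 peak was assigned to 4 of the 10 genes in 5 of the lists and to 5 after meclizine, and each of them was a catalytic gene. Over all marked promoters the share with more than 1 peak ran from 14.0% after meclizine to 18.1% after loxapine. When the 2 peaks of a pair were compared with the stretch between them, the stretch was the more GC-rich at all 6 catalytic genes, in each list that held a pair. The same was true of most promoters with exactly 2 assigned peaks at most 2 kb apart, with 93.3% of them in Q7SST, 93.3% in Q111SST, 95.3% after cyproheptadine, 94.5% after loxapine, 95.6% after DKI and 92.5% after meclizine, so the arrangement was not particular to these genes. At Kmt2a it held 68.6% to 75.1% GC over 4 lists, beside 58.3% to 60.5% under the upstream and 54.5% to 57.1% under the downstream peak. At Kmt2c it held 74.5% to 78.2% over 5 lists, beside 53.2% to 60.9% upstream and 44.6% to 49.5% downstream.

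The stretch at Kmt2b held 74.8% to 75.5% GC over 3 lists and that at Kmt2d 70.7% to 74.2% over 5 lists. Setd1a, whose start was covered, showed the same arrangement downstream, with 72.7% to 74.1% in the stretch and 49.1% to 56.7% under the peaks of the pair over 5 lists. The Setd1b stretch held 67.7% to 68.3% over 3 lists, with 42.9% to 43.7% under the upstream peak and 60.1% to 61.5% under the downstream one. Whether GC content played a part in the missing signal was not tested, and reads in the stretch cannot be seen in a peak list.

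**Figure D4:**
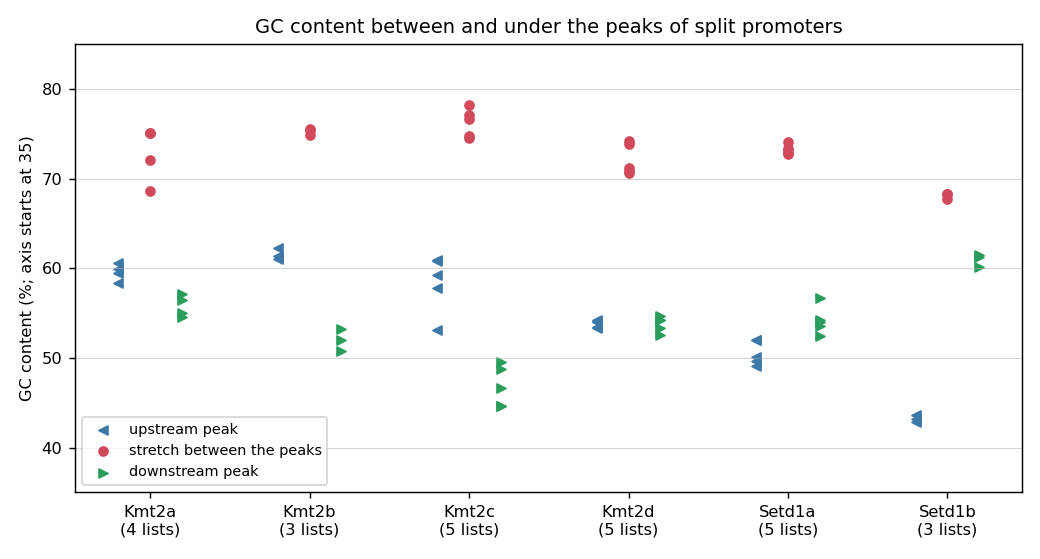
GC content (vertical axis in percent, starting at 35) is given for the upstream peak, the stretch between the peaks and the downstream peak of each split promoter, with 1 set of points per list that held a pair and the number of such lists under each name. The stretch between peaks lies above both peaks in each list at each gene.

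Around the main start, 500 bp to either side, GC content was 76.1% for Kmt2a, 72.6% for Kmt2b, 78.3% for Kmt2c, 65.6% for Kmt2d, 55.8% for Setd1a and 72.4% for Setd1b. It was 64.3% for Wdr5, 61.5% for Ash2l, 50.8% for Rbbp5 and 61.1% for Dpy30, beside a median of 59.3% over the 11713 promoters marked in all 6 lists. Kmt2c exceeded 99.7% of these promoters and Rbbp5 exceeded 10.1%. The ratio of observed to expected CpG lay between 0.783 for Setd1b and 0.919 for Kmt2c, above the median of 0.747 for all promoters in each of the 10 genes.

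Among all promoters the start was covered in all 6 lists for 72.4% and in none for 7.88%. In 5 groups of about equal size by GC content, the share covered in none was 10.1%, 3.60%, 2.89%, 3.99% and 18.9% from the lowest to the highest GC. Of the 839 promoters with at least 70% GC, 34.3% were covered in none and 20.6% in all 6. Kmt2a, Kmt2b, Kmt2c and Setd1b belong to this set, and 3 of these 4 were covered in none. Across the 11713 promoters the Spearman correlation of GC content with the number of lists covering the start was -0.27, a description over promoters that share the same 6 libraries.

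**Figure D5:**
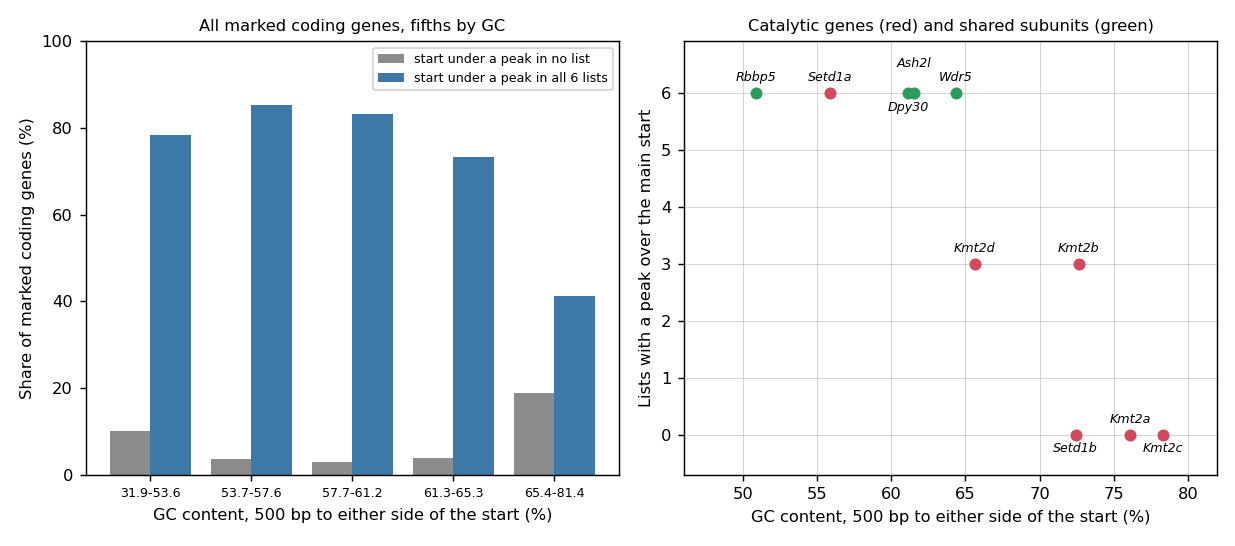
Left, the share of marked coding genes (percent) with the main start under a peak in no list or in all 6 lists, in 5 groups by GC content within 500 bp of the start. Right, the number of lists with a peak over the main start against GC content for the 10 genes, where the 5 genes covered in all 6 lists lie between 50.8% and 64.3% GC and the 3 covered in none between 72.4% and 78.3%.

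Peaks inside the gene bodies were found at 5 members. Setd1b held one that began between 7458 and 7679 bp from its start in all 6 lists, 446 to 775 bp wide at percentiles from 52.6 after DKI to 81.6 in Q111SST, which overlapped 1 annotated exon and no start of another gene. Kmt2c held one in an intron that began between 25616 and 26143 bp from its start in all 6 lists, at percentiles from 51.5 after cyproheptadine to 77.2 after meclizine, and 1 further weak intronic peak each after cyproheptadine and loxapine, at percentiles 1.44 and 25.9. Kmt2a held one that began between 53950 and 54115 bp from its start in Q111SST, cyproheptadine, loxapine and meclizine and none there in Q7SST or DKI. The peak at the 3′ end of Kmt2d, at percentiles from 94.1 to 99.3, covered the start of the neighbouring gene Prkag1. Weak peaks that began 20673 and 20998 bp into Ash2l were listed in Q7SST and Q111SST only, at percentiles 9.57 and 25.9.

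Genes of complex partners were marked as regularly as the members. All 12 partners, which are Men1, Psip1, Tasp1, Hcfc1, Hcfc2, Kdm6a, Ncoa6, Paxip1, Pagr1a, Cxxc1, Wdr82 and Bod1l, had a promoter peak in all 6 lists, with a median percentile of 87.0 and a median of 2335 bp covered in Q111SST. Their start was covered in all 6 lists at 6 genes and in none at 1, Wdr82, which encodes a SETD1-specific subunit. The other 5 were covered in part of the lists, Hcfc2 and Bod1l in 5 each, Psip1 in 4, Ncoa6 in 3 and Kdm6a in 2. Hcfc1, the scaffold host cell factor, had the most base pairs covered in Q111SST, 3696 bp. Kdm6a, which encodes the demethylase UTX of the KMT2C and KMT2D complexes, had the fewest, 666 bp, and varied the most, with 241 to 4387 bp and percentiles from 5.78 to 81.9 over the 6 lists.

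Of 7 other SET-domain genes linked to H3K4 methylation, 6 were marked in all 6 lists. Smyd1, a methyltransferase of heart and skeletal muscle, had no promoter peak in any of them. By the 6 widths, the coding genes whose pattern was most like the median of the 10 members were Rgma, Zfp251 and Sept6, at distances of 0.199, 0.240 and 0.255 on the log2 scale.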

How the data were processed

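H3K4me3 ChIP-Seq was performed on 6 samples, 1 per condition. The authors deposited a peak list for each, with chromosome, start, end and a whole-number peak score whose lowest value was 10. The submitters' processing notes name Trimmomatic 0.36, Bowtie2, SAMtools 1.3, MACS2 and the build mm10 (GRCm38). Peak-calling thresholds, any input control and the pooling of replicates were not given in the sources used here. Fewer reads or lower enrichment give fewer and narrower peaks and can split 1 peak into several, and read depth is unknown.

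Groups were taken from the sample labels. Peaks were assigned to genes within 1 kb of any GENCODE vM21 transcript start, and no peak ran beyond a chromosome end (0 peaks). Strength was the mid-rank percentile of the strongest peak's score within its list, and covered base pairs summed all assigned peaks. With 1 list per condition no test was made. Counts of members at the main settings were set beside the same counts over all coding promoters marked in both lists. The named genes were the 10 members, partners absent from a list or widest and narrowest in Q111SST, other SET-domain genes absent from a list, neighbours with a start under a member's promoter peak and the 3 genes nearest in log2 width. Wdr82, Hcfc2, Bod1l, Ncoa6, Men1, Psip1, Tasp1, Prdm9, Kmt2e and Ash1l were named after their values were seen. Of the marker genes, 1 is not reported here. The members and gene lists were chosen with earlier results of these data known. Assignment was tested on simulated data. The software was pysam 0.24.0 and samtools 1.23.1 for sequences, matplotlib 3.10.9 for figures, and scipy 1.17.1, pandas 2.3.3 and numpy 2.4.6 under Python 3.11.15. Alternatives were other windows, thresholds, start definitions and peak merging, lists of equal size and percentiles among promoters.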

Additional observations from a re-analysis of the deposited data

How the results depend on the processing

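No paired analysis was possible because only 1 list stood for each condition. The limits of 1.25-fold, merging before the start was looked up, other start definitions and a peak within 100 bp of the start were chosen after the data were seen, as were the count of members with the start under no peak, the GC comparison over all promoters with 2 peaks and the count of peaks just outside the 1 kb limit. All 10 members stayed marked in all 6 lists with a 5 kb window, with basic coding starts and with scores at or above the pooled median of 47, whereas 5 did when the peak had to lie over the start. In Q7SST, 0 members were wider by covered base pairs or with peaks within 1 kb merged and 2 relative to the median promoter, and 5 were narrower by covered base pairs and 1 at 1.25-fold. Relative to the median promoter, 1 member was wider and 4 were narrower after cyproheptadine, 3 were wider and 4 narrower after DKI, and 2 were narrower after meclizine. At 1.25-fold, 4 were narrower after cyproheptadine, 4 after DKI and 1 after meclizine. With percentiles taken among promoters, 5 members were higher and 4 lower after cyproheptadine, 4 higher and 5 lower after DKI, and 4 higher and 3 lower after meclizine. With lists of equal size, 3 were higher and 5 lower after loxapine, and 4 higher and 4 lower after DKI. The most upstream coding start lay under no peak for 5 members in Q7SST, 5 in Q111SST and 5 after meclizine. After cyproheptadine, loxapine and DKI it lay under no peak for 7 members each. Ash2l and Dpy30, both shared-subunit genes, are the members whose most upstream start is not the main start. Merging left 3 uncovered after cyproheptadine, 4 after loxapine and 4 after DKI. Shares of all promoters are not given for the counts under these alternatives. The cause of these shifts was not tested. Read depth is unknown, so a peak absent from a list was not detectable at that depth, and absence of the mark cannot be read from it.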

Other observations

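Prdm9, the meiotic H3K4 methyltransferase of germ cells, carried one of the strongest promoter peaks among the genes examined, at percentiles from 96.9 to 99.2 over the 6 lists, with 1315 to 1842 bp covered and no other coding start under the peak. Ash1l, which encodes an H3K36 methyltransferase also linked to H3K4, ranked between 96.8 and 99.6, but its strongest peak also covered the coding start of the neighbouring gene Dap3 in all 6 lists, and its own main start was covered in none. The main start of Kmt2e, the catalytically inactive relative of Kmt2a, was likewise covered in none of them, at percentiles between 45.4 and 69.0. Among the partners, Men1 and Psip1, whose products menin and LEDGF tether KMT2A to chromatin, covered 3099 and 2389 bp in Q111SST at percentiles 78.3 and 95.0. Tasp1, the protease that cleaves KMT2A and KMT2B, stayed between percentiles 94.8 and 97.4.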
